A study of Homo sapiens with 22 samples.

Results

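The genes described here are the numbered cadherins (CDH), protocadherins (PCDH) and integrin subunits (ITGA, ITGB) in 11 established human glioblastoma cell lines. Members were taken by gene symbol. The deposited tables listed 54 of the 108 annotated genes that meet this rule, of 6825 genes listed in all. A table of 8 lines (KNS-42, LN-229, SNU-1105, U-138MG, U-87MG, KALS-1, LN-18 and T98G) held 18 of them among 2221 genes. A table of 3 lines (A-172, AM-38 and SNU-466) held 45 among 5383 genes, and 9 genes were in both tables. The members of the 8-line table were 4 cadherins, 5 nonclustered protocadherins, 1 gene of the beta and 1 of the gamma protocadherin cluster, 5 integrin alpha and 2 integrin beta subunits. Those of the 3-line table were 11 cadherins, 7 nonclustered protocadherins, 4 alpha, 6 beta and 7 gamma cluster genes, 8 integrin alpha and 2 integrin beta subunits. Members in neither table were not analysed here.

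Cadherins are calcium-dependent transmembrane proteins that bind cadherins on neighbouring cells and are tied to the actin skeleton by catenins. Protocadherins are a large branch of the same superfamily. The clustered ones lie in tandem alpha, beta and gamma arrays on chromosome 5, and in neurons each cell is known to use a small choice of them, picked through individual promoters bound by CTCF. Integrins are heterodimers of an alpha and a beta subunit that bind extracellular matrix or counter-receptors, and the pairing sets the ligand: ITGA3, ITGA6 and ITGA7 form laminin receptors, ITGA5 and ITGA8 bind the RGD sequence of fibronectin and related proteins, and ITGA1, ITGA10 and ITGA11 bind collagens.

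Each line was grown without treatment and sequenced as 2 strand-specific poly(A) libraries, 22 in all. Serum was added at 10%, and at 20% for AM-38. KALS-1, SNU-466 and SNU-1105 grew in RPMI, A-172, LN-18, LN-229 and KNS-42 in DMEM, and U-87MG, U-138MG, T98G and AM-38 in EMEM, so line and medium cannot be told apart. Library totals were 16958669 to 21213215 reads, and a count of 0 reads in a library allows up to 3 reads. The 2 libraries of T98G were within 1.5-fold of each other for 52.9% of genes with at least 20 reads over both, and those of SNU-1105 for 67.0%, against 81.8% to 94.1% in the other lines. How genes entered a table is not stated. In the larger set of lines, 99.3% of all listed genes had a mean level in T98G, KALS-1 and LN-18 at least 2-fold above or below that of the 5 lines remaining, as did 18 of 18 members, of which 4 were higher in T98G, KALS-1 and LN-18, as were 40.4% of all listed genes. Likewise 93.9% of the genes listed for the 3 lines were that far apart between SNU-466 and the others, as were 43 of 45 members, 21 of them higher in SNU-466, as were 45.8% of all listed genes. Counts of members that differ are therefore read against the same counts over all listed genes. Levels are deposited FPKM (reads relative to gene length and library total), which allow genes of different length to be set side by side, given as library 1 and library 2 of a line. Of 7 glial markers, SOX2 was the one listed for the 8 lines, at 32.6 to 326 FPKM in KNS-42, LN-229 and SNU-1105 and 0 to 1.23 FPKM in the other libraries. For the 3 lines GFAP stood at 3.31 and 3.51 FPKM in SNU-466 and at most 0.12 in A-172 and AM-38, and NES at 23.9 to 85.0 FPKM in all libraries. In bulk RNA, fewer cells with a transcript and less transcript per cell cannot be told apart.

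Differences between lines were tested with edgeR's quasi-likelihood test, fitted on each whole table, with p-values Benjamini-Hochberg adjusted over all genes and line pairs of the table, and over genes for the test of any difference among lines. A pair was called at an adjusted p under 0.05 with at least a 2-fold change, and a line was called above or below every other line where all of its pairs were called. The SE beside a fold change is its size divided by the square root of the test's F statistic. It can fall below counting error where a line had few reads. Some difference among the 8 lines was called for 18 of 18 members, where the share over all tested genes was 99.7%. Of 504 pairs of lines over these members, 350 were called (69.4%, against 57.8% for all genes). Some line was above every other for 9 of the 18 members (50%, against 47.1%) and below every other for 4 (22.2%, against 15%). The distance between the highest and lowest line had a median of 7.22 on the log2 scale over the 18 members and 4.71 over 2095 tested genes, where a prior of 2 reads was added before taking logs and so sets the range of genes that a line had at 0 reads. In the 3-line table a difference was called for 45 of 45 members, where all genes gave 98.1%, and 107 of 135 pairs were called (79.3%, against 75.1%). Some line was above every other for 36 of 45 members (80%, against 65%) and below every other for 26 (57.8%, against 62%). The median range, computed alike, was 4.41 over the 45 members and 3.24 over 5035 tested genes. These shares are a description of the listed members beside all listed genes, with no test between them.

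Per line, the repertoire above a level of 1 FPKM held 10 of 18 members in LN-229, 9 in SNU-1105, 9 in U-138MG, 7 in each of KNS-42, U-87MG and T98G, 6 in KALS-1 and 5 in LN-18. The share of all listed genes at that level was not counted. For nearly all listed genes, the mean of KALS-1, LN-18 and T98G was at least 2-fold from that of the remaining lines. A single line can set such a difference of means. Per-line counts therefore describe the list and not the line alone. LN-229 was above every other line for 3 of 18 members (ITGA9, PCDH1, PCDHB7), where the share over all genes was 4.53%. U-138MG stood above every other line for ITGA10 and CDH18 (all genes, 4.25%), T98G for ITGA8 and CDH15 (4.77%), KALS-1 for CDH3 (8.83%) and SNU-1105 for PCDH15 (1%). KNS-42, U-87MG and LN-18 had no member 2-fold above the next line, whatever its p-value, whereas 8.35%, 5.82% and 9.5% of all genes were called above every other line in KNS-42, U-87MG and LN-18. ITGA5 was below every other line in KNS-42 (all genes, 1.72%), ITGB3 in U-138MG (1.48%), and PCDH9 and PCDH10 in T98G (4.63%).

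**Figure D1:**
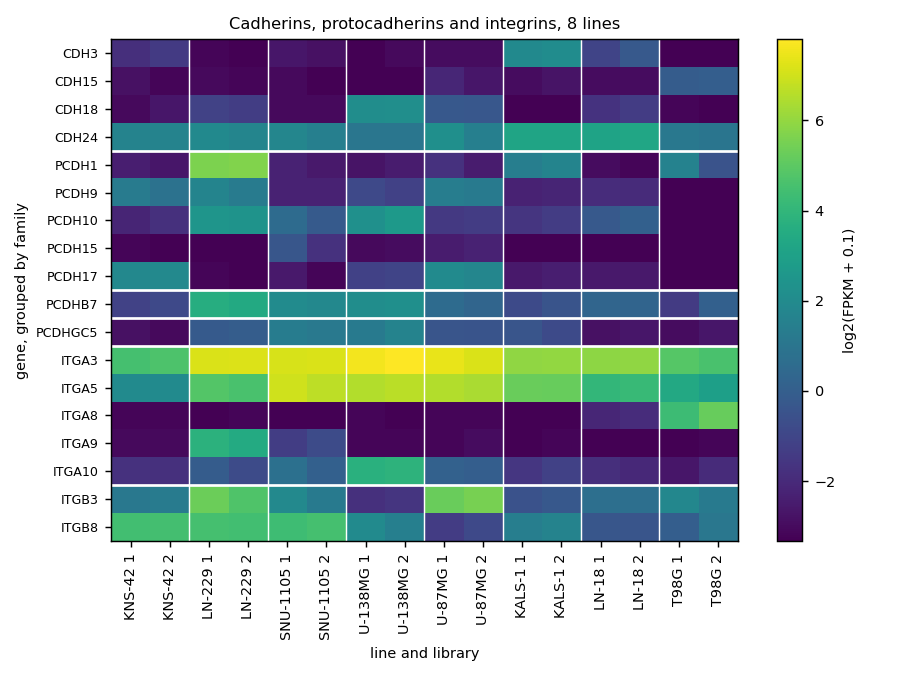
Levels of the 18 members in the 16 libraries of the 8-line table, as log2(FPKM + 0.1) by colour, with genes in rows grouped by family and libraries in columns grouped by line. ITGA3 and ITGA5 are the brightest rows, and most other rows are bright in 1 to 3 lines, as ITGA8 in T98G and PCDH1 in LN-229.

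Among the integrins of the 8 lines, the laminin receptor subunit ITGA3 (ENSG00000005884, chr17:50055968-50090481) was the most abundant member in every line except T98G, where ITGA8 had the higher mean and the libraries of the 2 genes overlapped. It stood at 194 and 222 FPKM in U-138MG, 171.5 and 142 in U-87MG, 145 and 149 in LN-229, 140.5 and 145 in SNU-1105, 61.0 and 62.9 for KALS-1, 59.8 and 61.6 for LN-18, 28.7 and 24.4 in T98G, and 22.9 and 25.8 in KNS-42. The order thus fell into 3 levels: U-138MG, U-87MG, LN-229 and SNU-1105 did not differ by a called step from the next line in that order, nor did KALS-1 and LN-18, nor T98G and KNS-42. SNU-1105 was higher than KALS-1 by 1.20 on the log2 scale (SE 0.17, adjusted p = 5.9e-06, edgeR) and LN-18 higher than T98G by 1.19 (SE 0.17, adjusted p = 6.76e-06).

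The fibronectin receptor subunit ITGA5 (chr12:54395261-54419460) spanned a wider range. Its levels were 126 and 103 FPKM in SNU-1105, 90.7 and 100.4 in U-138MG, 91.4 and 84.2 in U-87MG, 37.6 and 37.0 in KALS-1, 28.1 and 24.5 in LN-229, 16.6 and 17.7 in LN-18, 10.4 and 7.66 in T98G, and 3.86 and 3.87 in KNS-42. SNU-1105, U-138MG and U-87MG formed a high set in which neighbours were not called apart, and KNS-42 was the lowest line. KNS-42 lay below T98G, the next line, by a log2 fold change of -1.23 (SE 0.19, adjusted p = 1.77e-05), a call lost when T98G replicate 1 was left out (-0.99). Fibronectin itself, FN1, the ligand of this receptor, was also below every other line in KNS-42 (all genes, 1.72%), at 10.4 and 8.58 FPKM, against 20.7 and 19.4 in LN-18, the next line. Of 5 listed integrin ligands, LAMA4 was below every other line in KALS-1 and LAMC1 in LN-18. In KALS-1 and LN-18, 42 and 59 of 2095 tested genes were called below. A link of ligand and receptor levels was not tested.

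**Figure D2:**
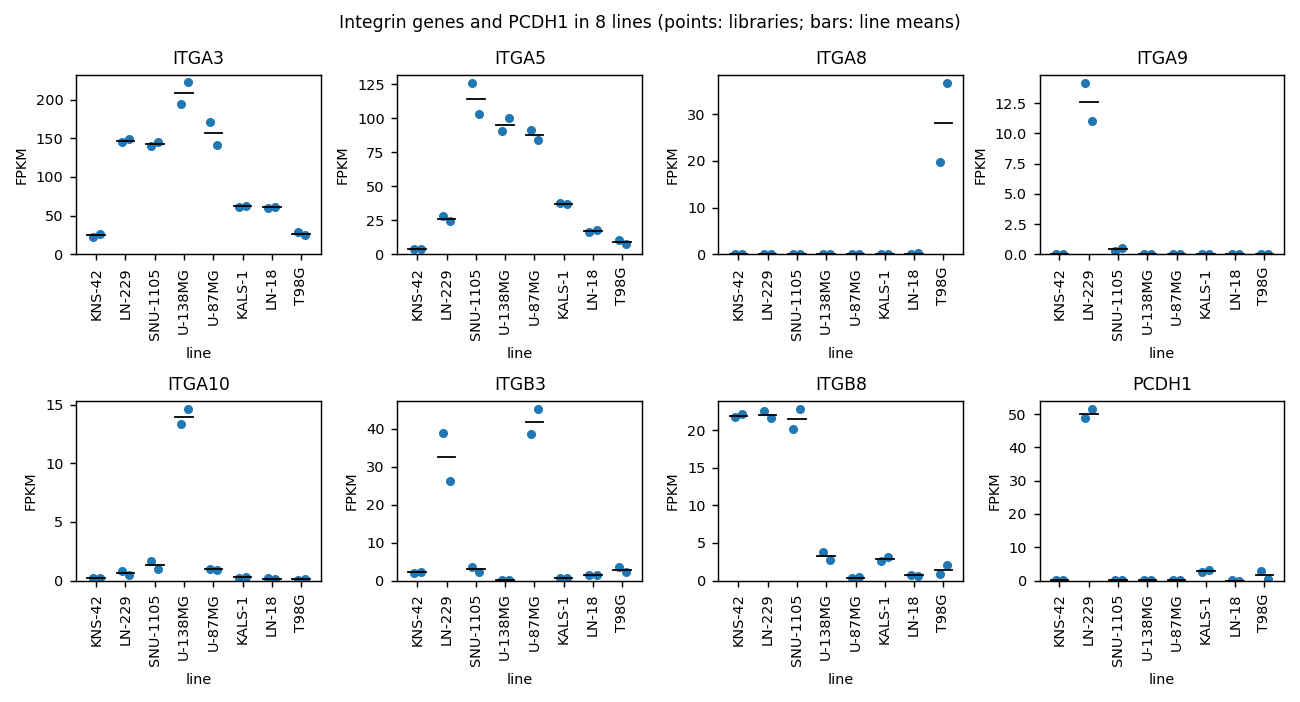
FPKM of the 7 integrin genes and PCDH1 in the 8 lines, each panel on its own linear axis, with points for the 2 libraries and a bar for the line mean. ITGA3 and ITGA5 are present in every line at graded levels, whereas ITGA8, ITGA9, ITGA10 and PCDH1 each rise in 1 line, and ITGB3 and ITGB8 in 2 and 3 lines.

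Several integrin alpha genes were abundant in a single line. ITGA8 (chr10:15513949-15720125), an RGD-binding subunit, stood at 19.7 and 36.7 FPKM in T98G, against 0.13 and 0.17 in LN-18 and at most 0.01 in any library of the other 6 lines. T98G was above LN-18 by 7.53 (log2, SE 0.40, adjusted p = 7.63e-11), although its own libraries were far apart. ITGA9 (chr3:37452115-37823514), which pairs with beta 1 and binds tenascin-C and osteopontin, stood at 14.2 and 11.0 FPKM in LN-229, against 0.31 and 0.48 in SNU-1105 and at most 0.03 elsewhere. LN-229 exceeded SNU-1105 by 4.99 (log2, SE 0.34, adjusted p = 8.13e-10). SPP1, which encodes osteopontin, was at 11.5 and 11.2 FPKM in LN-229 but higher in U-87MG (55.2 and 51.0) and SNU-1105 (63.4 and 22.5), so its order was not that of ITGA9. ITGA10 (chr1:145891208-145910189), a collagen receptor subunit, stood at 13.4 and 14.6 FPKM in U-138MG, against 1.63 and 0.97 in SNU-1105 and at most 1.00 in the other lines. The difference to SNU-1105 was 3.43 (log2, SE 0.33, adjusted p = 4.1e-08).

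The beta subunits ITGB3 and ITGB8 are known to pair with the alpha V subunit, and the ITGB8 pair activates latent TGF-beta. ITGB3 (chr17:47253846-47311816) stood at 38.6 and 45.1 FPKM in U-87MG and 38.8 and 26.2 in LN-229, whose libraries overlapped. All other lines were far lower: 3.62 and 2.23 in SNU-1105, 3.47 and 2.22 in T98G, 2.07 and 2.35 in KNS-42, 1.58 and 1.56 in LN-18, 0.60 and 0.74 in KALS-1, and 0.19 and 0.23 in U-138MG. LN-229 was above SNU-1105 by 3.48 (log2, SE 0.28, adjusted p = 4.37e-09), and U-138MG below KALS-1 by a log2 fold change of -1.65 (SE 0.33, adjusted p = 0.000237). In the annotation, 51.6% of the exon bases of ITGB3 also belong to another gene on the same strand, so part of its reads may have been assigned either way.

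ITGB8 (chr7:20330702-20415754) divided the lines differently. KNS-42, LN-229 and SNU-1105 had similar levels, at 21.7 and 22.1, 22.5 and 21.6, and 20.2 and 22.8 FPKM. The next line was U-138MG at 3.85 and 2.69 FPKM, followed by 2.60 and 3.08 in KALS-1, 0.90 and 2.04 in T98G, 0.68 and 0.67 in LN-18, and 0.29 and 0.44 in U-87MG. SNU-1105, the lowest of the high lines, exceeded U-138MG by 2.72 (log2, SE 0.30, adjusted p = 2.62e-07). LN-229 was thus high in both beta subunits, U-87MG in ITGB3 and low in ITGB8, KNS-42 and SNU-1105 in ITGB8, and U-138MG had ITGB3 below every other line.

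The 4 listed cadherins of the 8 lines were less abundant than the main integrins. CDH24 (chr14:23047062-23057538), a type II cadherin, stood at 9 and 8.99 FPKM in KALS-1, at 8.63 and 9.33 in LN-18, and at 1.92 to 4.57 FPKM in the libraries of the other 6 lines. KALS-1 and LN-18 were not called apart (log2 fold change 0.00, SE 0.23), and LN-18 exceeded U-87MG, the next line, by 1.30 (SE 0.24, adjusted p = 0.000112). CDH3 (P-cadherin, chr16:68636189-68722616), a classical cadherin of epithelia, stood at 3.75 and 4.10 FPKM in KALS-1, against 0.39 and 0.77 in LN-18, 0.18 and 0.27 in KNS-42 and at most 0.06 elsewhere. KALS-1 exceeded LN-18 by 2.75 (log2, SE 0.37, adjusted p = 4.01e-06). The listed epithelial keratins KRT8, KRT18 and KRT19 summed to 70.0 and 64.5 FPKM in KALS-1, with 86.8 and 92.7 in LN-18, against 0.17 to 37.8 FPKM in libraries of the other lines, and their part in the CDH3 and CDH24 levels was not tested.

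CDH18 (chr5:19472951-20575873), a type II cadherin described mainly in the nervous system, stood at 4.29 and 4.45 FPKM in U-138MG, against 0.74 and 0.72 in U-87MG, 0.36 and 0.31 in LN-229, 0.21 and 0.29 in LN-18 and at most 0.06 elsewhere. U-138MG exceeded U-87MG by 2.58 (log2, SE 0.32, adjusted p = 1.59e-06), and KALS-1 had 0 reads. CDH15 (M-cadherin), known from muscle, stood at 0.84 and 0.89 FPKM in T98G and at most 0.13 in a library of another line, with T98G above U-87MG by 3.17 (log2, SE 0.50, adjusted p = 2.53e-05). T98G therefore had 2 members, ITGA8 and CDH15, that were low or near 0 in the 7 other lines.

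Of the nonclustered protocadherins, PCDH1 (chr5:141853111-141879246), expressed in epithelia and brain, had the highest level. It stood at 48.9 and 51.4 FPKM in LN-229, against 2.63 and 3.14 in KALS-1, 2.91 and 0.62 in T98G and at most 0.20 in the other lines. LN-229 exceeded KALS-1 by 4.12 (log2, SE 0.46, adjusted p = 3.19e-07). PCDH10 (chr4:133149315-133208606), a neural protocadherin studied as a silenced gene in several tumours, stood at 4.74 and 6.11 FPKM in U-138MG and 5.47 and 5.08 in LN-229, which overlapped. The other lines followed at 1.40 and 0.78 in SNU-1105, 0.76 and 0.97 in LN-18, 0.26 and 0.29 in U-87MG, 0.23 and 0.29 in KALS-1 and 0.12 and 0.19 in KNS-42, and T98G had 0 reads in both libraries. Set against 3 reads over both T98G libraries, U-138MG was at least 663-fold higher and KNS-42, the next lowest line, at least 19.1-fold higher.

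PCDH17 and PCDH9, delta protocadherins that both lie on chromosome 13, were high in partly the same lines. PCDH17 stood at 3.88 and 3.37 FPKM in U-87MG and 3.56 and 3.69 in KNS-42, against 0.35 and 0.38 in U-138MG and at most 0.09 in the other lines. KNS-42 exceeded U-138MG by 3.30 (log2, SE 0.34, adjusted p = 1.66e-07). PCDH9 stood at 3.11 and 2.37 FPKM in LN-229, 2.56 and 2.33 in U-87MG and 2.35 and 1.70 in KNS-42, with no called step among them, and at 0.45 and 0.34 in U-138MG. LN-229 thus carried PCDH9 but had 1 read of PCDH17 over both libraries, whereas U-87MG and KNS-42 carried both genes. T98G had 2 reads of PCDH9 and 0 of PCDH17. PCDH15, a cadherin of the inner-ear hair bundle, was low in all lines, with the highest values of 0.69 and 0.20 FPKM in SNU-1105, and its call above U-87MG (2.25, log2, SE 0.54, adjusted p = 0.00157) was lost without SNU-1105 replicate 1 (1.13, adjusted p = 0.0802).

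The 3-line repertoire above 1 FPKM held 16 of 45 members in A-172, 18 in AM-38 and 19 in SNU-466, of which 10, 5 and 11 reached 10 FPKM. Shares of all listed genes at these levels were not counted. SNU-466 was above every other line for 19 members (all genes, 32.3%) and below every other line for 17 (45.8%). AM-38 was above for 9 (19.5%) and below for 5 (11%), and A-172 above for 8 (13.2%) and below for 4 (5.22%). Nearly all listed genes were at least 2-fold apart between SNU-466 and the mean of the other lines. These per-line counts therefore describe the list and not the line alone. The identity of the genes is described next, by family.

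**Figure D3:**
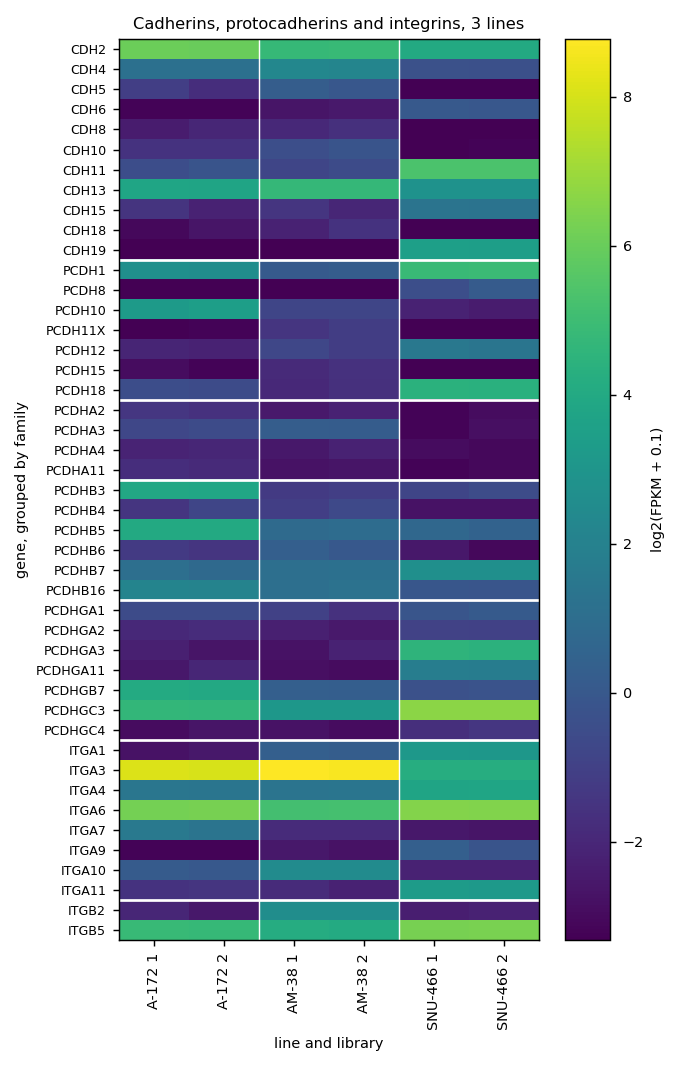
Levels of the 45 members in the 6 libraries of the 3-line table, as log2(FPKM + 0.1) by colour, with genes in rows grouped by family and libraries in columns grouped by line. ITGA3 is brightest in A-172 and AM-38 and dimmer in SNU-466, whereas CDH11, CDH19, PCDH18, PCDHGA3 and ITGA11 are bright in SNU-466 and dark in the other lines.

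The classical cadherin CDH2 (N-cadherin), found in neural and mesenchymal cells, was the most abundant listed cadherin in A-172 and AM-38, while CDH11 was in SNU-466. CDH2 stood at 66.5 and 64.6 FPKM in A-172, 27.7 and 28.4 in AM-38 and 16.3 and 16.3 in SNU-466. A-172 exceeded AM-38 by 1.23 (log2, SE 0.04, adjusted p = 7.72e-42), and the step to SNU-466 was under 2-fold (0.78). CDH13 (T-cadherin, chr16:82626803-83800640), which is anchored by a lipid and lacks a cytoplasmic tail, had the order AM-38 (26.0 and 26.6 FPKM), A-172 (13.8 and 13.1) and SNU-466 (7.12 and 7.18). Neither neighbouring step of CDH13 reached 2-fold. CDH4 (R-cadherin) likewise was highest in AM-38, at 4.78 and 4.40 FPKM, against 2.11 and 2.13 in A-172 and 0.71 and 0.68 in SNU-466.

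CDH11 and CDH19 were higher in SNU-466 than in the other lines. CDH11 (chr16:64943753-65126112), a type II cadherin of mesenchyme, stood at 40.0 and 40.5 FPKM in SNU-466, against 0.62 and 0.77 in A-172 and 0.48 and 0.58 in AM-38. SNU-466 exceeded A-172 by 5.86 (log2, SE 0.07, adjusted p = 4.5e-77). CDH19 (chr18:66501083-66604138), a type II cadherin of the neural crest and Schwann cell lineage, stood at 11.1 and 10.8 FPKM in SNU-466 and had 0 reads in all 4 libraries of A-172 and AM-38. Set against 3 reads over the 2 libraries of the lower line, SNU-466 was at least 996-fold higher than A-172 and at least 1032-fold higher than AM-38. CDH6 and CDH15 were also above both other lines in SNU-466, at up to 0.94 and 2.44 FPKM. The neural crest factor SOX10 was at 133 and 140.4 FPKM and the glial protein S100B at 958 and 958 FPKM in SNU-466, against at most 0.02 and 0.97 FPKM in a library of the other lines. The fibroblast genes COL1A2, DCN and LUM summed to 965 and 963 FPKM in SNU-466, against 1.37 to 12.02 in the other libraries. Most of the SNU-466 sum was COL1A2, at 945 and 943 FPKM, with DCN at 14.04 and 14.25 and LUM at 6.05 and 6.01. The part of the neural crest, glial and fibroblast genes in the cadherin levels was not tested.

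Several low-level cadherins were at or near 0 reads in SNU-466. CDH5 (VE-cadherin, of endothelial junctions) stood at 1.08 and 0.88 FPKM in AM-38, 0.38 and 0.20 in A-172 and 0 reads in SNU-466. AM-38 exceeded A-172 by 1.78 (log2, SE 0.24, adjusted p = 1.87e-10), while the other endothelial markers of AM-38 were near 0, with PECAM1 at 0.04 and 0.05 FPKM and TEK at 1 read. CDH10 and CDH18, also in AM-38, reached at most 0.77 and 0.24 FPKM. CDH8, a further type II cadherin, stood at 0.16 and 0.22 FPKM in AM-38 and 0.09 and 0.15 in A-172, with 1 read in SNU-466.

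The nonclustered protocadherins separated the 3 lines by gene. PCDH1 stood at 29.6 and 30.4 FPKM in SNU-466, 6.37 and 5.93 in A-172 and 0.99 and 1.08 in AM-38, a called step each time (SNU-466 over A-172, 2.29 on the log2 scale, SE 0.07, adjusted p = 1.53e-48). PCDH18 (chr4:137518918-137532494) stood at 21.0 and 20.5 FPKM in SNU-466, against 0.62 and 0.57 in A-172 and 0.16 and 0.22 in AM-38, and SNU-466 exceeded A-172 by 5.12 (SE 0.10, adjusted p = 2.48e-61). PCDH10 had A-172 highest and SNU-466 lowest: 9.42 and 10.7 FPKM in A-172, 0.47 and 0.48 in AM-38 and 0.12 and 0.09 in SNU-466. A-172 exceeded AM-38 by 4.41 (SE 0.10, adjusted p = 1.72e-55). PCDH10 and PCDH18, which neighbour each other on chromosome 4 among the listed members, were thus high in different lines. PCDH8 had 58 and 101 reads in SNU-466 and 0 in the other lines, which is at least 57.5-fold over A-172, at a level of 0.66 and 1.00 FPKM. PCDH12, expressed in endothelium, reached 2.81 FPKM in SNU-466, whereas PCDH15 and PCDH11X were above the other lines in AM-38 at no more than 0.23 and 0.36 FPKM.

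For the integrins of the 3 lines, ITGA3 was the most abundant member in A-172 and AM-38, and in SNU-466 it lay below PCDHGC3, ITGA6 and ITGB5, among others. ITGA3 stood at 436 and 396 FPKM in AM-38, 280 and 267 in A-172 and 18.4 and 18.4 in SNU-466. SNU-466 lay below A-172 by a log2 fold change of -3.89 (SE 0.04, adjusted p = 1.91e-80). ITGA6 (chr2:172427354-172506282), the other main laminin receptor subunit, ran the other way, at 92.8 and 90.6 FPKM in SNU-466, 74.7 and 77.0 in A-172 and 35.8 and 36.9 in AM-38. SNU-466 and A-172 were under 2-fold apart in ITGA6, and the call of AM-38 below A-172 (-1.06, SE 0.04, adjusted p = 1.62e-38) was lost with TMM (-0.997) and RLE factors (-0.82). In SNU-466, ITGA6 was therefore the higher of these 2 laminin receptor subunits per length, whereas ITGA3 was the higher in A-172 and AM-38.

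Among the listed ligands, the laminin chains LAMA4, LAMB1 and LAMC1 were above the other lines in SNU-466, with LAMC1 at 272 and 258 FPKM, against 64.1 and 63.1 in A-172 and 55.6 and 57.2 in AM-38. LAMB3, a chain of the epithelial laminin bound by ITGA3 and ITGA6, stood at 272 and 245 FPKM in AM-38, 9.44 and 8.59 in A-172 and 0.65 and 0.49 in SNU-466. Of the 20 integrin ligand genes considered, 13 were listed, of which 9 were above every other line in SNU-466 (all genes, 32.3%), 2 in AM-38 (19.5%) and 1 in A-172 (13.2%). Another 3 were below every other line in SNU-466 (45.8%), and 5 were in AM-38 (11%) and 1 in A-172 (5.22%). FN1 was among the 9, at 294 and 280.4 FPKM in SNU-466, against 5.95 and 6.06 in A-172 and 4.90 and 4.92 in AM-38. Of 19 genes for integrin adaptors 9 were listed, 5 of them above every other line in SNU-466 and 3 in AM-38. Below every other line were 4 in SNU-466 (FERMT1, LIMS1, PXN and TNS4), TNS3 in AM-38 and TLN2 in A-172. The shares of all genes are the same as for the ligands.

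The collagen receptor subunits also took different lines. ITGA1 stood at 8.77 and 8.43 FPKM in SNU-466, 1.18 and 1.08 in AM-38 and 0.05 and 0.07 in A-172, with SNU-466 above AM-38 by 2.93 (log2, SE 0.07, adjusted p = 6.31e-53). ITGA11 stood at 9.77 and 9.28 FPKM in SNU-466, against 0.24 and 0.26 in A-172 and 0.18 and 0.12 in AM-38, with SNU-466 above A-172 by 5.27 (SE 0.12, adjusted p = 6.82e-58). ITGA10 had another order, at 5.51 and 5.69 FPKM in AM-38, 1.01 and 0.90 in A-172 and 0.12 and 0.12 in SNU-466. AM-38 exceeded A-172 in ITGA10 by 2.55 (SE 0.12, adjusted p = 1.16e-34). Collagen I chain COL1A2, a ligand of these receptors, was above the other lines in SNU-466.

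Of the remaining alpha subunits, ITGA4, which with beta 1 binds VCAM1 and fibronectin, stood at 13.5 and 13.6 FPKM in SNU-466, 2.58 and 2.54 in A-172 and 2.39 and 2.53 in AM-38. SNU-466 exceeded A-172 by 2.40 (log2, SE 0.07, adjusted p = 2.52e-48), and A-172 and AM-38 were not called apart (0.06). ITGA7, a laminin receptor subunit of muscle and glial tumours, stood at 2.84 and 2.45 FPKM in A-172, against 0.18 and 0.18 in AM-38 and 0.07 and 0.06 in SNU-466. ITGA9 reached 1.17 and 0.78 FPKM in SNU-466 and at most 0.07 in the other lines.

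ITGB5, an alpha V partner that binds vitronectin, stood at 77.8 and 80.2 FPKM in SNU-466, 28.0 and 27.5 in A-172 and 17.6 and 16.7 in AM-38. SNU-466 exceeded A-172 in ITGB5 by 1.51 (log2, SE 0.05, adjusted p = 8.08e-47). Its partner ITGAV was below the other lines in AM-38, at 5.81 and 6.09 FPKM, against 18.1 and 17.3 in SNU-466 and 13.2 and 15.7 in A-172. ITGB2 (chr21:44885953-44931989), the beta subunit of the leukocyte integrins, stood at 6.05 and 5.89 FPKM in AM-38, against 0.15 and 0.07 in A-172 and 0.10 and 0.12 in SNU-466. AM-38 exceeded A-172 by 5.75 (log2, SE 0.17, adjusted p = 1.57e-48). Its known partners ITGAX, ITGAL and ITGAD were also above the other lines in AM-38 (all genes, 19.5%). ITGAX stood there at 2.17 and 2.11 FPKM, against 0.95 and 1.10 in A-172, and ITGAL at 0.34 and 0.28. ITGAM, a further partner, was instead highest in A-172 at 0.55 and 0.51. ITGAX, ITGAD and ITGAM were called below every other line in SNU-466 (all genes, 45.8%). The leukocyte marker PTPRC (CD45) was near 0 in AM-38, with 3 and 5 reads, and the leukocyte genes PTPRC, ITGAM and CSF1R summed to 0.39 and 0.25 FPKM there, against 0.88 and 0.86 in A-172.

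The 9 genes in both tables allowed levels to be set side by side over 11 lines, although the tables were fitted apart and no test was made across them. ITGA3 stood at 436 FPKM in AM-38, its highest library, and 18.4 in SNU-466, its lowest, and was the highest of the 9 genes in 10 of the 11 lines, SNU-466 having more PCDH1. PCDH1 was high in LN-229 and SNU-466, PCDH10 in A-172, U-138MG and LN-229, ITGA10 in U-138MG and AM-38, and CDH15 in SNU-466 and T98G. ITGA9 exceeded 10 FPKM in LN-229 and stayed at or under 1.17 FPKM in every other line. PCDHB7 was at 12.05 and 10.8 FPKM in LN-229 and 6.48 and 6.50 in SNU-466, and CDH18 exceeded 1 FPKM in U-138MG alone among the 11 lines.

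**Figure D4:**
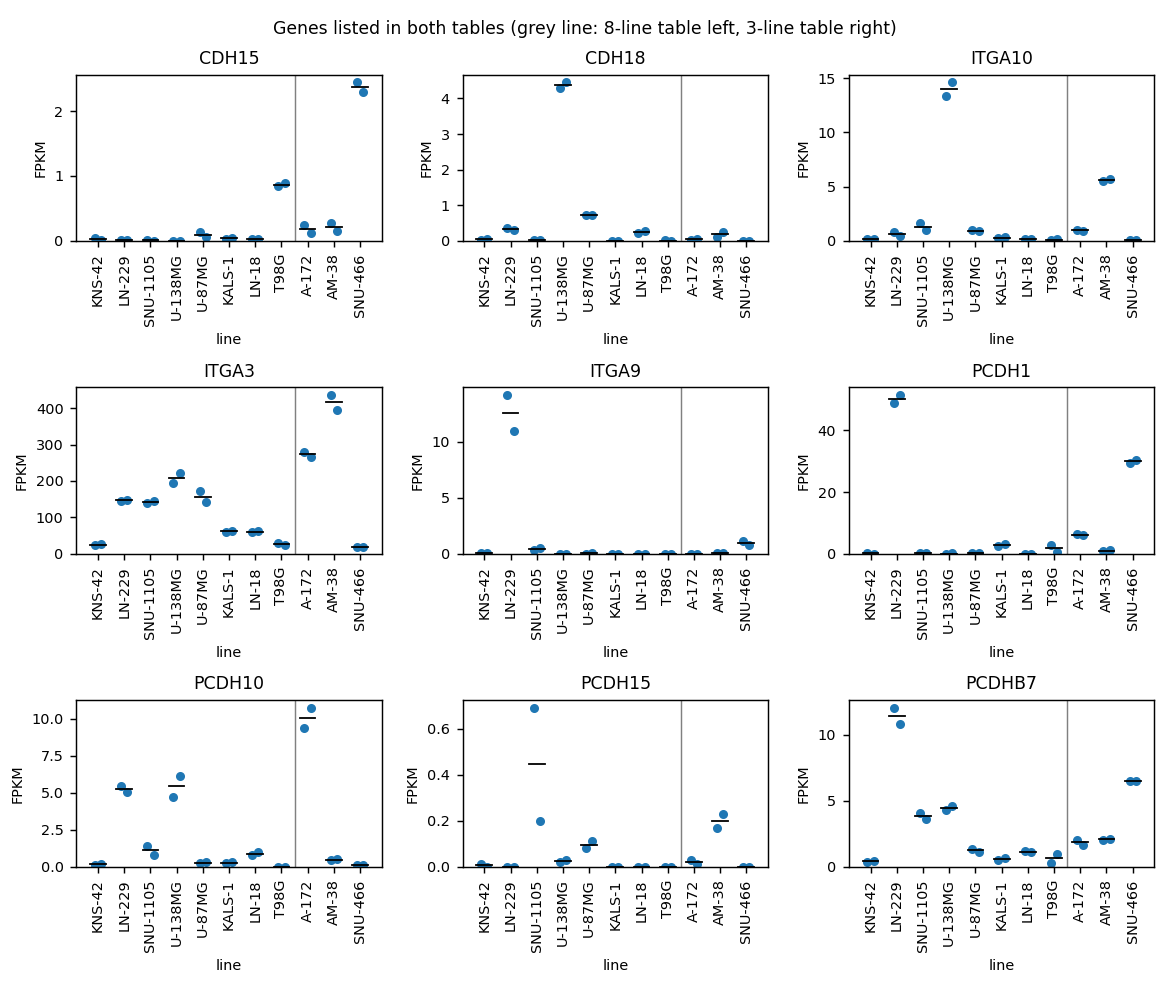
FPKM of the 9 genes listed in both tables, 1 panel per gene on its own linear axis, with points for the 2 libraries and a bar for the line mean; the grey line parts the 8-line table on the left from the 3-line table on the right. ITGA3 is spread over all lines, whereas the other genes stand out in a few lines each.

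Clustered protocadherins were compared next, with the question of whether genes of one cluster go together over lines. Of 54 annotated clustered genes, 17 were in the 3-line table and 2 in the 8-line table. Exons of the alpha genes overlapped other annotated genes on the same strand over 21.3% to 56.6% of their bases, and those of the gamma genes over 32.4% to 44.7%, because each variable first exon joins constant exons shared by its cluster. How reads in the constant exons were counted is not stated, so levels of single alpha and gamma genes are uncertain, whereas the single-exon beta genes shared between 0% and 8.64%.

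The stretches of 120 bases before the annotated start of 7 genes are printed here because these genes lie in 1 chromosomal region yet had their highest level in different lines. They are RefSeq sequence (GRCh38.p14, plus strand, the strand of each gene), ending just before the more upstream of the RefSeq and GENCODE starts, at chr5:141100353-141100472 for PCDHB3, chr5:141135086-141135205 for PCDHB5, chr5:141172499-141172618 for PCDHB7, chr5:141343709-141343828 for PCDHGA3, chr5:141417525-141417644 for PCDHGB7, chr5:141420927-141421046 for PCDHGA11 and chr5:141475827-141475946 for PCDHGC3. Capitals mark CGCT on the strand shown, the core of the conserved element known from clustered protocadherin promoters, where CTCF binds.
PCDHB3: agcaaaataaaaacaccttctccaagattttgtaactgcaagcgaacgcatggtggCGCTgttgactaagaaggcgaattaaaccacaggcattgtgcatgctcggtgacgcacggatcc
PCDHB5: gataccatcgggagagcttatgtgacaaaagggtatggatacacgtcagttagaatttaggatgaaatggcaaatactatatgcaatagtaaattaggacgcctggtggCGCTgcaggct
PCDHB7: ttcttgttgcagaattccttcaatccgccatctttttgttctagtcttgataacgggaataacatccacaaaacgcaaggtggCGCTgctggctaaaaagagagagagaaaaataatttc
PCDHGA3: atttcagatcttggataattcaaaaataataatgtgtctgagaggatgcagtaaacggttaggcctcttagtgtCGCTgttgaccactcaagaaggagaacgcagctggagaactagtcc
PCDHGB7: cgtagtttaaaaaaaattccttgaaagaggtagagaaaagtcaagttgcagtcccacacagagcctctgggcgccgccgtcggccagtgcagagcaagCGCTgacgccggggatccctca
PCDHGA11: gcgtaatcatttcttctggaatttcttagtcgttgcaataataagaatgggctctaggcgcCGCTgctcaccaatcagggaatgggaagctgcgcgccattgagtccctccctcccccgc
PCDHGC3: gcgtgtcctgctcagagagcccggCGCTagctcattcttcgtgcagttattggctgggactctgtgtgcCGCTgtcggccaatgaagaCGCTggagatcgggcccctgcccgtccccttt

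CGCT was found on either strand within 250 bases before the start in 15 of 15 listed clustered genes with a RefSeq window, in 45 of 47 annotated ones (95.7%) and in 64.8% of all 35116 windows. The longer GTGGCGCT, which contains CGCT, was found in 5 of 5 listed beta genes with a window and in 0 of 10 listed alpha and gamma genes, in 12 of 47 annotated clustered genes (25.5%) and in 0.940% of all windows. In the sequences shown, PCDHB3, PCDHB5 and PCDHB7 each carry this longer form. PCDHB3 and PCDHB5 were highest in A-172 and PCDHB7 in SNU-466, and the part of this form in these levels was not tested. PCDHGC3 carries 3 copies of CGCT in the stretch shown and the other genes 1 copy. A match describes these letters alone.

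The listed alpha genes, 4 of 16 annotated, were low throughout and lowest in SNU-466. The 4 listed genes PCDHA2, PCDHA3, PCDHA4 and PCDHA11 summed to 0.06 and 0.11 FPKM in SNU-466, against 1.11 and 1.13 in A-172 and 1.27 and 1.35 in AM-38. Each of the 4 was called below both other lines in SNU-466, which 45.8% of all genes were, although the call of PCDHA11 (-1.97 to AM-38, adjusted p = 0.0256), at 0.01 and 0.02 FPKM in SNU-466, was lost with DESeq2 and without 1 library of SNU-466 or AM-38. PCDHA3 led the sum in AM-38, at 1.07 and 1.05 FPKM, against 0.50 and 0.58 in A-172, a step of 0.97 on the log2 scale that missed 2-fold. The other 3 genes were higher in A-172, and PCDHA2 and PCDHA11 were called above AM-38 there, the call of PCDHA2 (1.33, adjusted p = 0.00141) being lost with DESeq2 and without AM-38 replicate 1.

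The listed beta genes, 6 of 16 annotated, did not move as one. PCDHB3 stood at 15.0 and 14.2 FPKM in A-172, against 0.47 and 0.61 in SNU-466 and 0.32 and 0.37 in AM-38, with A-172 above SNU-466 by 4.74 (log2, SE 0.14, adjusted p = 1e-47). PCDHB5 stood at 16.1 and 16.3 FPKM in A-172, 1.74 and 1.81 in AM-38 and 1.57 and 1.28 in SNU-466, with A-172 above AM-38 by 3.19 (SE 0.11, adjusted p = 3.75e-44). Between these 2 genes on the chromosome lies PCDHB4, which stood at 0.37 and 0.53 FPKM in AM-38, 0.27 and 0.47 in A-172 and 0.05 and 0.05 in SNU-466. PCDHB6, next after PCDHB5, was highest in AM-38, at 1.18 and 0.92 FPKM, and PCDHB7 in SNU-466, at 6.48 and 6.50 FPKM, against 2.05 and 2.12 in AM-38 and 2.01 and 1.66 in A-172. SNU-466 exceeded AM-38 in PCDHB7 by 1.64 (log2, SE 0.12, adjusted p = 3.17e-22). PCDHB16, the last listed gene of the array, stood at 4.23 and 4.11 FPKM in A-172, 2.03 and 2.29 in AM-38 and 0.83 and 0.82 in SNU-466, where it was called below both other lines. Of the 6 listed beta genes, A-172 was called above the other lines for 2 (all genes, 13.2%), AM-38 for 1 (19.5%) and SNU-466 for 1 (32.3%). The summed level was 37.9 and 37.0 FPKM in A-172, 7.69 and 8.04 in AM-38 and 9.47 and 9.28 in SNU-466.

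**Figure D5:**
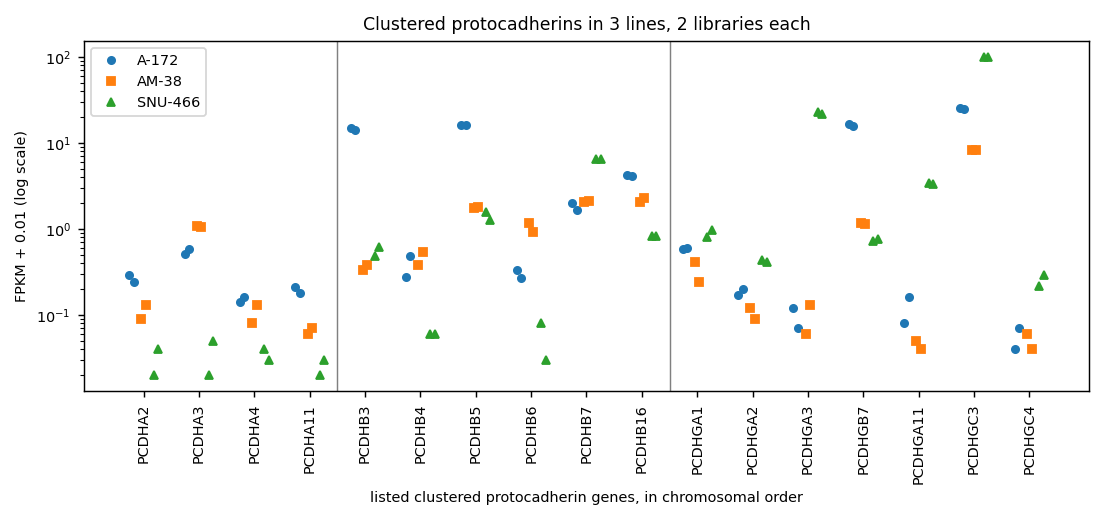
FPKM + 0.01 (log axis) of the 17 clustered protocadherins of the 3-line table in chromosomal order, with a point per library for A-172, AM-38 and SNU-466 and grey lines between the alpha, beta and gamma clusters. SNU-466 is lowest in the alpha genes and highest in most gamma genes, and SNU-466 is lowest in PCDHGB7 and highest in the adjacent PCDHGA11.

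The listed gamma genes, 7 of 22 annotated, had their highest sum in SNU-466. Summed over these 7 genes, the level was 129.5 and 128 FPKM in SNU-466, 43.2 and 41.8 in A-172 and 10.1 and 9.85 in AM-38. PCDHGC3, a C-type gene used broadly in neural cells, made up 78.2% of the mean sum in SNU-466, 59.9% in A-172 and 82.9% in AM-38. Its levels were 101 and 100.2 FPKM in SNU-466, 25.7 and 25.2 in A-172 and 8.32 and 8.24 in AM-38, with SNU-466 above A-172 by 1.98 (log2, SE 0.05, adjusted p = 8.18e-55). PCDHGA3 stood at 23.1 and 21.7 FPKM in SNU-466, against 0.11 and 0.06 in A-172 and 0.05 and 0.12 in AM-38, a difference to AM-38 of 8.02 (log2, SE 0.16, adjusted p = 2.07e-61). AM-38 had 5 and 12 reads of PCDHGA3, so this SE is below counting error. Of the 7 genes, 6 had their highest mean in SNU-466 and 5 were called above both other lines there, where 32.3% of all genes were.

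PCDHGB7 was the exception. It stood at 16.5 and 15.6 FPKM in A-172, 1.16 and 1.12 in AM-38 and 0.71 and 0.76 in SNU-466, with A-172 above AM-38 by 3.81 (log2, SE 0.10, adjusted p = 2.41e-51). PCDHGA11, which starts 3.40 kb further along the chromosome and is the next listed gene, stood at 3.41 and 3.30 FPKM in SNU-466, 0.07 and 0.15 in A-172 and 0.04 and 0.03 in AM-38. SNU-466 exceeded A-172 in PCDHGA11 by 4.94 (log2, SE 0.22, adjusted p = 1.21e-35). The shared constant exons are common to both genes, so the opposite places of SNU-466 in them rest on reads that the deposited counts set apart between them. PCDHGA1 and PCDHGA2, at no more than 0.96 FPKM, and PCDHGC4, at no more than 0.28, were the low ones of the listed gamma genes.

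Over the 3 lines, SNU-466 thus had the lowest mean in 4 of 4 alpha genes, 4 of 6 beta genes and 1 of 7 gamma genes, and the highest mean in 0, 1 and 6 of them. In SNU-466, 4 alpha, 3 beta and 0 gamma genes were called below both other lines, as were 45.8% of all genes. Called above both there were 0, 1 and 5 of them (all genes, 32.3%). Of 17 listed clustered genes, 7 had the highest mean in A-172, 3 in AM-38 and 7 in SNU-466. Shares of highest and lowest means over all genes were not counted. Nearly all listed genes were at least 2-fold apart between SNU-466 and the mean of the other lines, so these counts describe the list and not the clusters alone. With 3 lines no correlation is given.

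In the 8 lines PCDHB7 and PCDHGC5 were the listed clustered genes. PCDHB7 stood at 12.05 and 10.8 FPKM in LN-229, 4.31 and 4.57 in U-138MG, 4.06 and 3.59 in SNU-1105, 1.36 and 1.13 in U-87MG, 1.15 and 1.10 in LN-18, 0.28 and 0.95 in T98G, 0.47 and 0.63 in KALS-1 and 0.36 and 0.44 in KNS-42. LN-229 exceeded U-138MG by 1.36 (log2, SE 0.32, adjusted p = 0.000996). PCDHGC5, a C-type gamma gene, stood at 2.24 and 3.01 FPKM in U-138MG, 2.42 and 2.13 in SNU-1105, 0.80 and 0.86 in LN-229, 0.67 and 0.63 in U-87MG, 0.66 and 0.47 in KALS-1 and at most 0.06 in LN-18, T98G and KNS-42. SNU-1105 exceeded LN-229 by 1.46 (log2, SE 0.29, adjusted p = 0.000236), and U-138MG and SNU-1105 overlapped.

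Both genes were high in U-138MG and SNU-1105 and low in KNS-42 and T98G, and they differed in which line led. Over the 8 line means of log2(FPKM + 0.1), Pearson's r of PCDHB7 with PCDHGC5 was 0.72 and Spearman's rho 0.86. This was rank 15 among the 153 pairs of the 18 members, whose r had a median of -0.01 and ran from -0.70 (CDH15 with PCDH10) to 0.95 (CDH15 with ITGA8). CDH15 and ITGA8 had means of 0.865 and 28.2 FPKM in T98G, against at most 0.095 and 0.15 in any other line. Their r without T98G was not computed. ITGA3 with ITGA5 had an r of 0.90, ITGA5 with PCDHGC5 0.90 and PCDH10 with PCDHB7 0.89. The genes of a pair were measured in the same libraries and share the split of the listed genes. These values therefore describe likeness over 8 lines and nothing more.

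The genes that work with these molecules were sparsely listed. Of 13 catenins and junction adaptors, 2 were in the 8-line table, the neural catenins CTNNA2 and CTNND2. Both were above every other line in KNS-42 (all genes, 8.35%). CTNNA2 stood there at 21.0 and 22.6 FPKM, against 0.82 and 0.81 in U-87MG, the next line. For the 3 lines 5 were listed, and JUP (plakoglobin) and PKP2 were above the other lines in A-172 (all genes, 13.2%). JUP stood there at 43.3 and 41.6 FPKM and PKP2 at 9.12 and 9.34, against at most 0.63 and 0.02 elsewhere. In SNU-466, PKP1 was above the other lines (all genes, 32.3%), at 0.22 and 0.19 FPKM, and PKP2 was below them (45.8%). The keratins KRT8 and KRT18 summed to 472 and 452 FPKM in A-172, 85.7 and 79.1 in AM-38 and 0.09 and 0.13 in SNU-466. Of 24 other genes of the cadherin superfamily, 3 were in the 8-line table and 9 in the 3-line table, of which 5 were above the other lines in SNU-466 (all genes, 32.3%), 2 in A-172 (13.2%) and 1 in AM-38 (19.5%), and 3 below them in SNU-466 (CLSTN3, DSG2 and FAT2; all genes, 45.8%) and 1 in AM-38 (CLSTN2; 11%). The 10 genes considered as regulators of clustered protocadherins, CTCF and the cohesin subunits among them, were in neither table.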

How the data were processed

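Per the labels' protocols, RNA was taken with TRIzol, and poly(A) RNA was made into strand-specific libraries. The authors deposited read counts, FPKM and gene length per gene and library. The submitters' processing notes name HISAT2 2.2.1, StringTie 1.3.3, HTSeq 0.6.0, FastQC 0.10.1, cutadapt 1.9.1 and the hg38/GRCh38 build. The role of each tool and the annotation release are not given in the sources used here. The library total behind the deposited FPKM was worked back from genes at 20 FPKM and 200 reads or more; it returned those FPKM within 0.01 for at least 99.9% of genes. Listed genes held 5.81% to 10.2% (8 lines) and 21.8% to 37.1% (3 lines) of the total. Floors of 3 reads cover counting error only.

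Counts were tested with edgeR 4.0.16 (R 4.3.3), 1 coefficient per line, these totals as library sizes, a low-count filter by line that all 18 and all 45 members passed, and Benjamini-Hochberg adjustment over genes and line pairs. The code was tested on simulated data. Alternatives were TMM and RLE factors, no filter, DESeq2 1.42.0, limma 3.58.1 on log2 CPM (prior count 2), a replicate block, leaving out each library and, added after seeing the data, leaving out T98G or SNU-1105. Same-numbered libraries did not deviate together (r -0.07 to 0.07), and libraries of a line differed beyond sampling noise. No source says that the libraries of a line are separate cultures: the p-values reflect their spread, which may be technical.

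Coordinates are from GENCODE 29 on GRCh38 and promoters from RefSeq on GRCh38.p14, which held 38 of 54 members. Symbols matched 2220 of 2221 and 5382 of 5383 genes. The members, lists and motifs were chosen with earlier results of these data known. Values in every library are given for the 3 highest genes of each family and for genes called above every other line with at least 5 FPKM there; others were named after their values were seen. A planned likeness within each protocadherin cluster over 8 lines could not be had with 1 beta and 1 gamma gene listed, so the r of that pair is given. A numbered cadherin is not reported here.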

Additional observations from a re-analysis of the deposited data

How the results depend on the processing

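Counts of members differing, above or below every other line, and of pairs called stayed within 1.5 times under each alternative run: TMM and RLE factors, no filter, DESeq2, limma, leaving out 1 library, and leaving out the line T98G or SNU-1105. Members below every other line in the 8 lines numbered 6 with TMM and with RLE factors and without T98G, against 4. Leaving out 1 library in turn gave 342 to 357 pairs, 8 to 9 above and 4 to 5 below in the 8 lines, and 105 to 109, 35 to 38 and 24 to 27 in the 3 lines. With the replicate block, 350 and 107 pairs were called, as without it.

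Of 75 calls of a member above or below every other line, 67 held under every alternative, 8 were lost under at least 1 and 0 reversed; the cause was not tested. Besides those named beside their genes, the lost calls were PCDHGA2 above in SNU-466 (RLE, 0.92), PCDHGA11 below in AM-38 (without A-172 replicate 2, -1.05), and CDH18 below in SNU-466 (without A-172 replicate 2 or SNU-466 replicate 2). TMM and RLE factors shift all genes of T98G by 0.51 and 0.55 (log2), KALS-1 by 0.29 and 0.19, LN-18 by 0.28 and 0.41, and SNU-466 by -0.09 and -0.28.

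The r of PCDHB7 with PCDHGC5 was 0.66 with log2(FPKM + 1) and 0.86 as Spearman's rho. Leaving out a line gave 0.79 (KALS-1), 0.64 (KNS-42), 0.74 (LN-18), 0.84 (LN-229), 0.69 (SNU-1105), 0.68 (T98G), 0.67 (U-138MG) and 0.73 (U-87MG); the cause was not tested. Genes with under 20 reads in a line, among them the 4 alpha cluster genes in SNU-466, are limited by depth.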

Other observations

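Among the adaptors that link integrins to actin, the kindlins FERMT1 and FERMT2 had SNU-466 at opposite ends of the 3 lines. FERMT2, the kindlin of mesenchymal cells, stood at 30.1 and 28.5 FPKM in SNU-466, against 8.45 and 8.78 in A-172 and 8.56 and 8.84 in AM-38, and was called above both other lines. FERMT1, the kindlin of epithelia, stood at 4.49 and 4.77 FPKM in AM-38, 1.46 and 1.41 in A-172 and 0.26 and 0.30 in SNU-466, and was called above both other lines in AM-38 and below both in SNU-466. Both paralogs were in the same table, and neither was in the 8-line table.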
